A study of Mus musculus with 2 samples.

Results

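The genes described here encode the enzymes that break down glucose and glycogen: glycolysis, the pyruvate dehydrogenase complex and its kinases, the pentose phosphate pathway, the TCA cycle, and glycogen synthesis and breakdown. They form a list of 49 genes chosen by name, of 43346 gene rows in the deposited tables, and every gene of the list had a row. The tissue was whole mouse lung of strain B6NCrl at embryonic day 16.5, pooled from male and female embryos. Total RNA longer than 200 nt was sequenced in 2 libraries, which the labels call biological replicates 1 and 2 and which form the only group, each made from 10 ng of RNA with ERCC spike-ins. Replicate 2 came from 41 embryos, and the labels give no number for replicate 1. Whole lung mixes epithelium, mesenchyme, vessels and blood, so a level in these data is an average over cell types, and fewer cells of a type cannot be told apart from less RNA per cell.

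Glycolysis splits glucose into pyruvate in the cytosol, and lactate dehydrogenase turns pyruvate into lactate and renews the NAD+ that the pathway needs. Pyruvate dehydrogenase passes pyruvate on to the TCA cycle in mitochondria, and its kinases switch that entry off. The pentose phosphate pathway draws on the same glucose to make NADPH and ribose. Several steps have isoenzymes from separate genes, known by the adult tissue in which each was first described (muscle, liver, heart, brain), and the fetal lung stores glycogen in its epithelium as a carbon source for surfactant lipid.

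Replicate 1 was sequenced to 38852470 expected counts and replicate 2 to 27145411, and levels are in TPM, a unit that corrects read numbers for transcript length and library depth. Markers of lung were present in both libraries, with the epithelial factor Nkx2-1 at 77.0 and 62.6 TPM and the mesenchymal factor Tcf21 at 321.5 and 331.4 TPM in replicates 1 and 2. Markers of skeletal muscle and of liver were also present and differed between the libraries, as described with the isoenzymes they touch. With 1 group of 2 samples no test between conditions exists, and every value is a description, given as mean ± SD over n = 2 or as the value in replicate 1 followed by that in replicate 2.

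Nearly all of the enzymes were expressed. At 1 TPM or more in both replicates, 47 of the 49 genes (95.9%) were detected, against 61.5% of all 21474 genes annotated as coding for protein. The other 2 were Hk3, a hexokinase, at 0.800 and 1.07 TPM and Pklr, the pyruvate kinase of liver and red cells, at 0.150 and 1.13 TPM. At 10 TPM the count was 41 (83.7%), against 40.3% of coding genes, and at 100 TPM it was 19 (38.8%), against 7.06%. The median level was 78.7 ± 1.03 TPM for the enzymes, against 4.87 ± 0.219 TPM for all coding genes and 19.0 ± 0.159 TPM for those detected. Together the 49 genes took 1.05% of TPM, of which glycolysis held 0.750%, the TCA cycle 0.202%, the pentose phosphate enzymes 0.0484%, pyruvate dehydrogenase with its kinases 0.0246% and the glycogen enzymes 0.0225%. Ldha, Gapdh, Eno1, Pkm and Tpi1 alone made up 53.4% of the summed level of the 49 genes in replicate 1 and 52.6% in replicate 2.

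**Figure D1:**
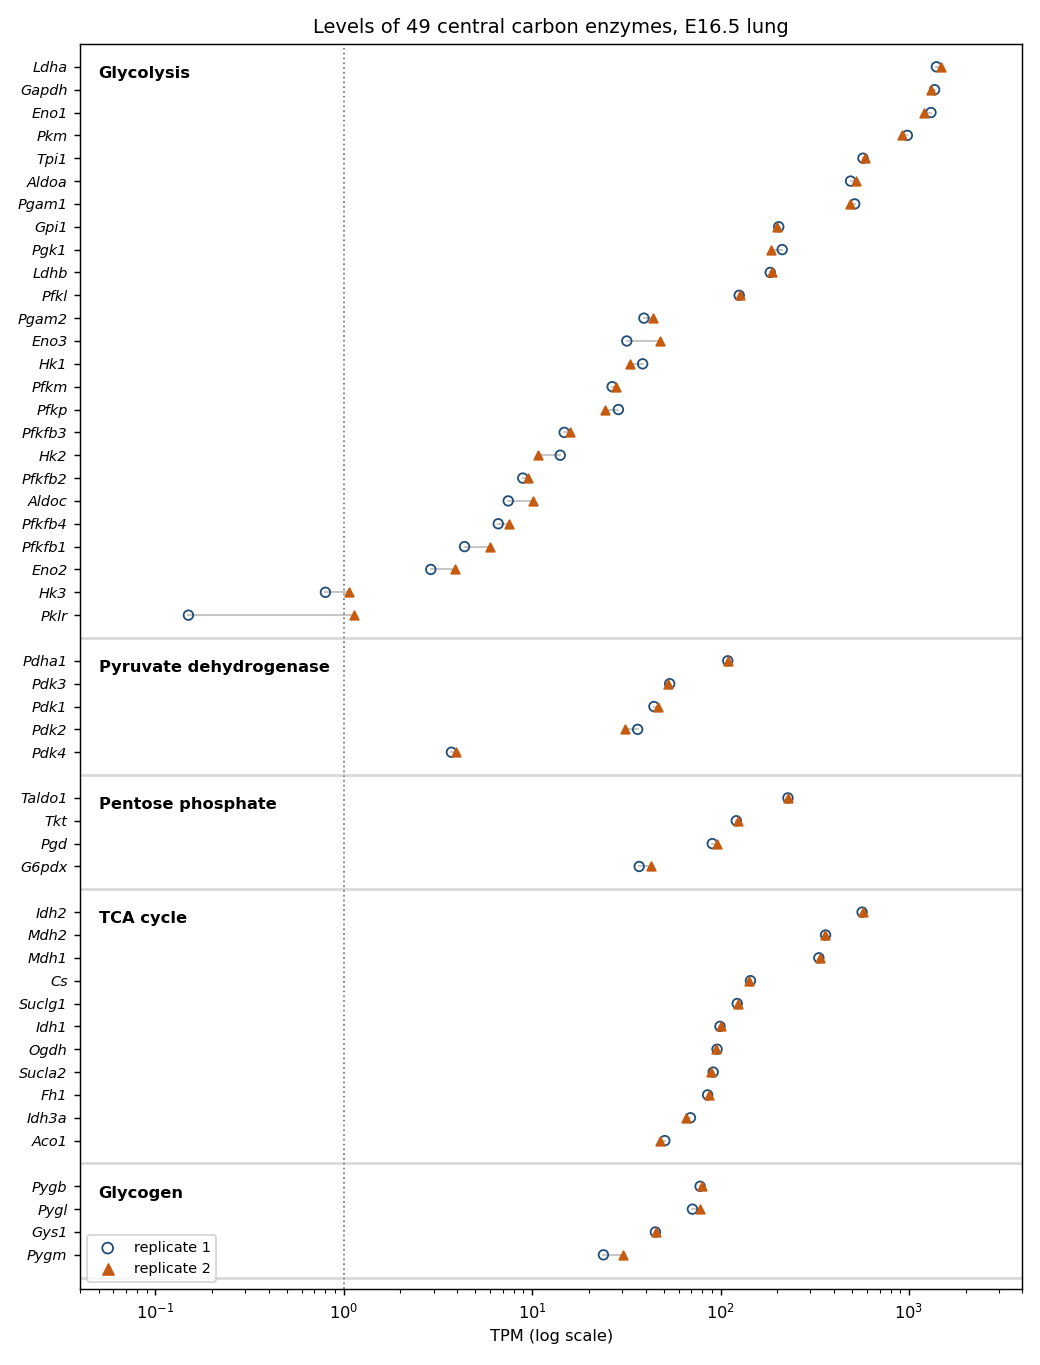
TPM of each of the 49 enzyme genes (log axis) in replicate 1 (open circles) and replicate 2 (triangles), grouped by pathway and ordered by mean level; the dotted line marks 1 TPM. All genes but Hk3 and Pklr lie above the line in both libraries, and the symbols of most genes nearly coincide.

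Along glycolysis the summed level of the isoenzymes was in general higher at the lower steps of the pathway than at the upper ones. Hexokinase, which traps glucose in the cell, had the lowest sum, 49.1 ± 6.23 TPM. Phosphofructokinase, the regulated step, reached 180.3 ± 0.820 TPM, and glucose phosphate isomerase (Gpi1, at 203.6 and 199.8 TPM) reached 201.7 ± 2.67 TPM. Lactate dehydrogenase, at the end of the pathway, had the highest sum, 1620 ± 54.6 TPM, and glyceraldehyde phosphate dehydrogenase (1338 ± 41.5 TPM), enolase (1296 ± 66.8 TPM) and pyruvate kinase (950.3 ± 42.1 TPM) followed. The exception among the lower steps was phosphoglycerate kinase, at 198.8 ± 19.3 TPM. Between them lay triosephosphate isomerase (Tpi1, 569.9 and 583.9 TPM) at 576.9 ± 9.92 TPM, phosphoglycerate mutase at 542.5 ± 16.9 TPM and aldolase at 514.0 ± 23.9 TPM. The replicate values of neighbours in this order overlapped for glyceraldehyde phosphate dehydrogenase and enolase, for phosphoglycerate mutase and aldolase, and for glucose phosphate isomerase and phosphoglycerate kinase. Those pairs have no order beyond their spread. Phosphofructokinase stood 3.67-fold above hexokinase.

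More than 50% of the level of glyceraldehyde phosphate dehydrogenase came from a short transcript. Gapdh (chr6:125161715-125166467, minus strand, build mm10) had 1367 and 1309 TPM, of which Gapdh-208, annotated as a processed transcript without a coding sequence, took 57.07% and 55.22%. It is 483 nt long and held 7831 and 5142 expected counts. Gapdh-203, the coding transcript of 1420 nt, held more reads, 19473 and 13974 expected counts, but took 41.25% and 43.63% of TPM. Division by length gives each read of the shorter transcript more weight. Over coding transcripts alone the step stood at 578.5 ± 0.806 TPM, beside triosephosphate isomerase at 571.0 ± 9.98 TPM. No other step of glycolysis moved so far, as the plot of step sums shows, and enolase kept 1259 ± 68.2 TPM and lactate dehydrogenase 1611 ± 52.1 TPM.

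**Figure D2:**
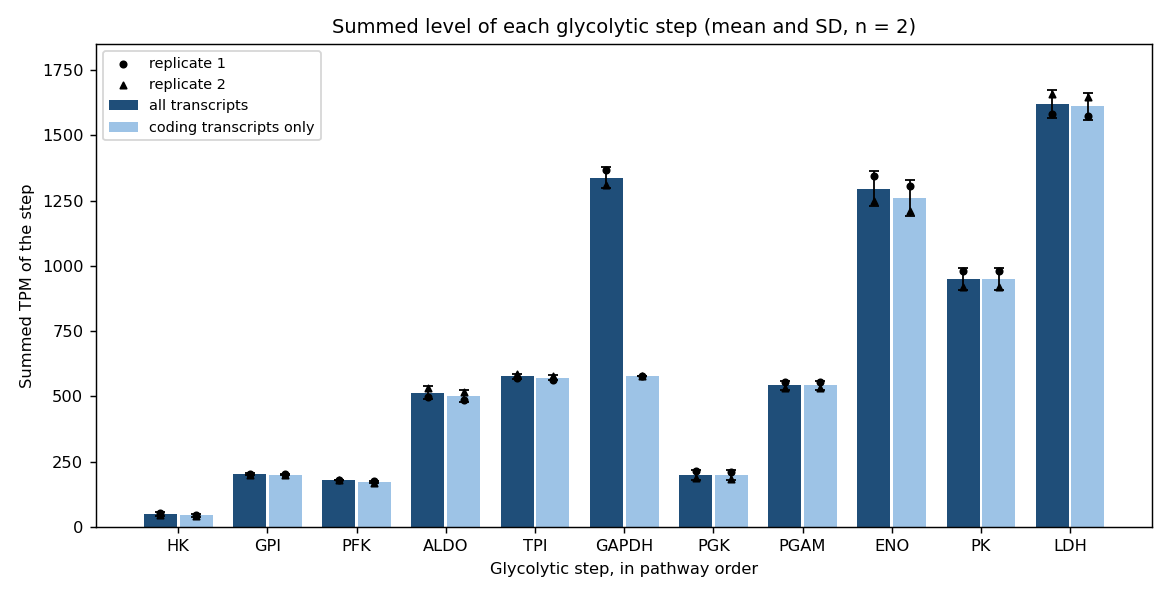
Summed TPM of the genes of each glycolytic step in pathway order, from hexokinase (HK) to lactate dehydrogenase (LDH), for all transcripts and for coding transcripts only; bars are means, error bars SD (n = 2), and symbols the replicates. The bars of GAPDH differ most, with 1338 TPM over all transcripts and 578.5 TPM over coding transcripts only.

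In most isoenzyme families 1 gene held the greater part of the expression. A gene had at least 50% of the summed TPM in 7 of 10 families, and the exceptions were the kinases that make the activator of phosphofructokinase (PFKFB), the pyruvate dehydrogenase kinases and glycogen phosphorylase. Of 17 pairs of isoenzymes, 16 had a log2 ratio with the same sign in both replicates and a mean beyond 2 SD. The pair that did not meet this rule was Pygb and Pygl. The signs called for Pdk1 to Pdk3 and for Mdh1 to Mdh2 turned under other measures, as given below.

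**Figure D3:**
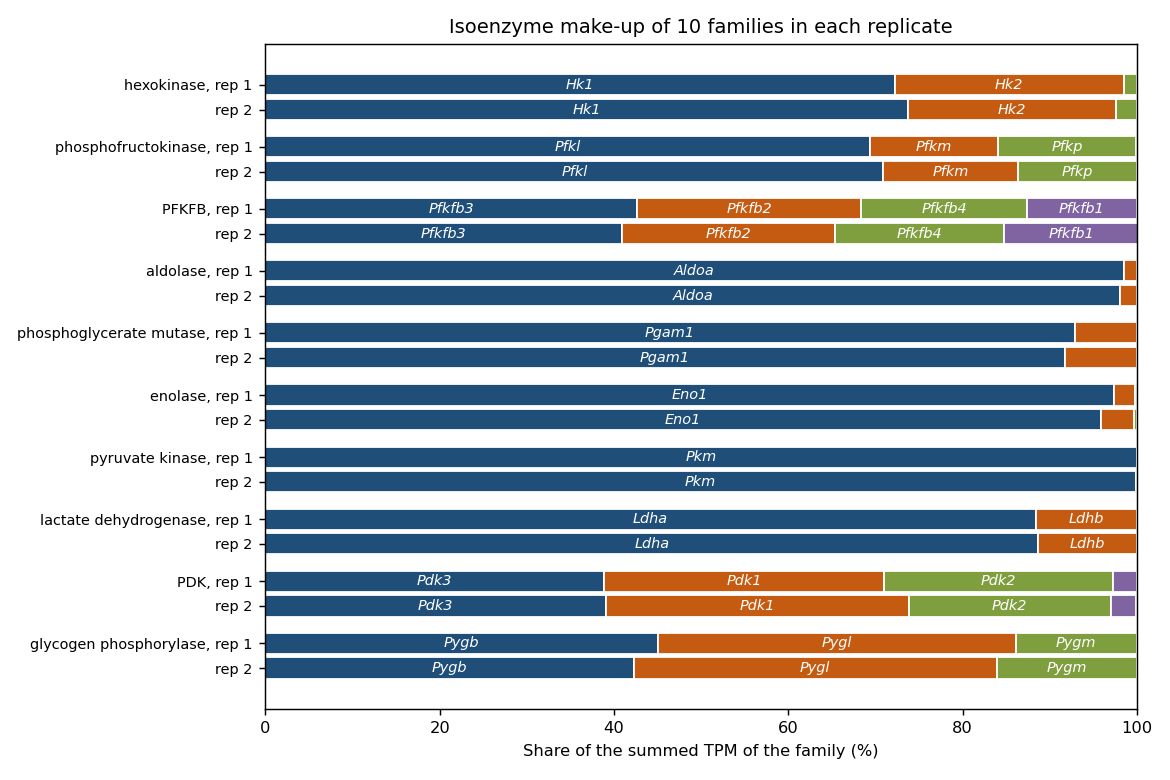
Share of the summed TPM of 10 enzyme families held by each gene (percent, 0 to 100) in replicates 1 and 2; segments too narrow for a label are Hk3, Aldoc, Pgam2, Eno3, Eno2, Pklr and Pdk4. Hk1, Pfkl, Aldoa, Pgam1, Eno1, Pkm and Ldha each take more than 50%, and PFKFB, PDK and glycogen phosphorylase are divided.

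Hk1, the hexokinase found in most tissues, made up 73.0 ± 1.03% of the hexokinase level, at 38.6 and 32.9 TPM. Hk2, the insulin-regulated form of muscle and fat, had 14.1 and 10.7 TPM, and Hk3 had 1.95 ± 0.636% of the family. The log2 ratio of Hk1 to Hk2 was 1.54 ± 0.12, and 2.38 over coding transcripts only. Of Hk2, 44.1% of TPM lay in Hk2-202, a processed transcript of 594 nt with 85 and 41 expected counts. Hkdc1, a hexokinase relative not on the list, was at 3.71 and 3.57 TPM.

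Among phosphofructokinase subunits the liver type was the most abundant. Pfkl had 125.6 and 127.4 TPM, 70.2 ± 1.04% of the family. The muscle subunit Pfkm (26.6 and 27.8 TPM) and the platelet subunit Pfkp (28.7 and 24.5 TPM) held 15.1 ± 0.531% and 14.7 ± 1.57%, so their order was not resolved. The PFKFB enzymes set the level of the sugar phosphate that activates phosphofructokinase, and all 4 were low. Pfkfb3, the widely expressed form, led with 14.8 and 15.9 TPM, ahead of the heart form Pfkfb2 at 8.92 and 9.53 TPM by a log2 ratio of 0.74 in the mean. Pfkfb4, first described in testis, had 6.61 and 7.53 TPM and the liver form Pfkfb1 4.38 and 5.95 TPM.

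Aldolase was almost wholly Aldoa, the form of muscle and most other tissues, with 489.6 and 520.7 TPM or 98.3 ± 0.288% of the family. The brain form Aldoc had 7.47 and 10.1 TPM. Phosphoglycerate mutase was mainly Pgam1 (515.2 and 486.8 TPM, 92.3 ± 0.838%), with the muscle form Pgam2 at 39.2 and 43.8 TPM. Eno1, the enolase of most tissues, had 1308 and 1197 TPM and 96.7 ± 1.08% of its family. The muscle form Eno3 was at 31.8 and 47.5 TPM and the neuronal form Eno2 at 2.90 and 3.89 TPM. Each leading gene therefore stood well above its tissue-restricted relatives in both libraries.

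Pgk1, phosphoglycerate kinase on the X chromosome, had 212.4 and 185.1 TPM, and its processed pseudogene Pgk1-rs7 was listed at 30.0 and 59.2 TPM. Reads of such copies cannot be placed with certainty, and the sum of both was 242.4 and 244.3 TPM. The log2 difference of Pgk1, replicate 2 minus replicate 1, was -0.20 alone and 0.01 with the copy. Likewise Pgam1-ps2 was listed at 51.0 and 59.8 TPM beside Pgam1. In all, 8 copies of 5 genes were looked up by name, and 4 reached 1 TPM in the mean, the others being Ldha-ps2 at 2.20 and 3.97 TPM and Eno1b at 5.28 and 9.25 TPM.

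Pyruvate kinase makes pyruvate and ATP in the last step of glycolysis. Pkm (chr9:59656368-59679375, plus strand) had 979.9 and 919.4 TPM, 99.9% of the pyruvate kinase level. Its transcripts carry either of a pair of mutually exclusive exons, each of 167 nt. The upstream exon (chr9:59675029-59675195) gives the M1 form of adult muscle and brain, and the downstream exon (chr9:59675568-59675734) gives the M2 form of embryonic and dividing cells. They are shown because the choice between them separates the deposited Pkm transcripts. Sequences are from GENCODE M21 transcripts on mm10, 5′ to 3′, and capitals mark the 64 positions at which they differ; 103 positions (61.7%) are identical.
Pkm-201, downstream exon (M2): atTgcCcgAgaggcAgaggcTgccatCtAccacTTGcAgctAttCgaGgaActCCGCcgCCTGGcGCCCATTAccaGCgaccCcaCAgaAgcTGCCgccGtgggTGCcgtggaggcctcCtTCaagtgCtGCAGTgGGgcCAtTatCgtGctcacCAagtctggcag
Pkm-202, upstream exon (M1): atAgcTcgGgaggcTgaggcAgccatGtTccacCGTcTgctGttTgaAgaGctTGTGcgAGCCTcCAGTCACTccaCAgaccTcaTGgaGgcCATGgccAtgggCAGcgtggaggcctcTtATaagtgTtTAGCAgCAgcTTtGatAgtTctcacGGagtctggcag
The M2 transcript Pkm-201 had 919.46 and 856.93 TPM, and the M1 transcript Pkm-202 had 60.45 and 62.42 TPM. In expected counts these were 56061 and 37045 for M2 and 3686 and 2698 for M1. The M1 share was 6.17% in replicate 1 and 6.79% in replicate 2, and both transcripts are 2432 nt long in the deposited tables, so division by length leaves the split as it was in counts. The deposited credibility bounds of the M1 transcript were 53.9 to 63.9 TPM in the library of replicate 1 and 54.7 to 66.8 TPM in that of replicate 2. These bounds overlapped between the libraries.

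Lactate dehydrogenase is a tetramer of Ldha and Ldhb subunits, and tetramers rich in Ldha favour the making of lactate. Ldha (chr7:46841475-46855627, plus strand) had 1398 and 1472 TPM, and Ldhb (chr6:142490249-142507957, minus strand) had 183.5 and 187.0 TPM. Ldha held 88.6 ± 0.235% of the family, a log2 ratio of 2.95 ± 0.03. Ldhb nevertheless stood above 96.5% of coding genes.

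Promoter letters of this pair are shown because Ldha is a classic target of the hypoxia-inducible factors. Their core site reads ACGTG or GCGTG, and the site of MYC holds ACGTG. Only ACGTG was searched for. The windows are RefSeq promoters (GRCm38.p6), 250 nt before the start, 5′ to 3′ on the gene's strand, and capitals mark ACGTG on either strand, in which overlapping matches merge.
Ldha, chr7:46845554-46845803, plus strand: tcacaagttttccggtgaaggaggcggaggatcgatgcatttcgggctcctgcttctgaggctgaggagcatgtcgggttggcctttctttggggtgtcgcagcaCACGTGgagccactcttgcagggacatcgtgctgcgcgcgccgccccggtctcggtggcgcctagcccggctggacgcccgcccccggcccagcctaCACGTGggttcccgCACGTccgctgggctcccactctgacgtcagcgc
Ldhb, chr6:142507958-142508207, minus strand: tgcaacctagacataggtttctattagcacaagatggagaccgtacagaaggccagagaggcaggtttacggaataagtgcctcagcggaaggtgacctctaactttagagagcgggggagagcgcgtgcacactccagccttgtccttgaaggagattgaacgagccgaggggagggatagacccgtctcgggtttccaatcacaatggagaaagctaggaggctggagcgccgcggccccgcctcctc
The Ldha window held 5 matches at 3 places, and the Ldhb window held no ACGTG. A further RefSeq start of Ldha (chr7:46846832-46847081) held none either. The form GCGTG occurs in the Ldhb window and, on the opposite strand, in the further Ldha window. These counts therefore leave out part of the core sites of the hypoxia-inducible factors. Over the promoters of the list, 48 genes matched the table, and 30 of their 75 windows of 300 nt (40.0%) held ACGTG, against 6447 of all 32851 windows (19.6%). A match describes letters only, and binding was not measured.

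Pyruvate dehydrogenase and its brakes were expressed at intermediate levels. Pdha1, the catalytic E1 alpha subunit encoded on the X chromosome, had 109.2 and 109.8 TPM. Its kinases, which inactivate it, summed to 136.0 ± 2.91 TPM, with Pdk3 at 53.7 and 52.5 TPM, Pdk1 at 44.3 and 46.4 TPM and Pdk2 at 36.3 and 31.1 TPM. Pdk4, the kinase induced by fasting in adult muscle, had only 3.73 and 3.94 TPM. The log2 ratio of Pdk1 to Pdk3 was -0.23 ± 0.07, but it was 0.48 in expected counts not divided by length and -1.58 over coding transcripts only. Coding transcripts made up 38.5% of Pdk1. Transcripts not annotated as coding took 59.6% and 63.4% of its TPM. The largest of them, the processed transcript Pdk1-208, took 37.72% and 34.43%. Which of these kinases led therefore depended on the measure. Of complex subunits not on the list, Pdhb had 138.6 and 145.0 TPM and Dld 108.0 and 96.0 TPM, and the testis form Pdha2 was listed at 0.

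In the pentose phosphate pathway transaldolase and transketolase, which interconvert sugar phosphates, stood above the entry enzyme. Taldo1 (transaldolase) had 227.9 and 227.7 TPM, Tkt (transketolase) 121.2 and 124.4 TPM, and Pgd, the second NADPH-producing enzyme, 90.4 and 96.0 TPM. G6pdx, which commits glucose to the pathway, was the lowest of the 4 at 37.0 and 42.8 TPM. The replicate values of no pair among these overlapped. Of the non-oxidative enzymes outside the list, Rpia, the ribose phosphate isomerase, was lower than G6pdx at 1.85 and 2.24 TPM, and Rpe had 49.4 and 42.8 TPM. Pgls, the lactonase between the oxidative steps, was at 182.7 and 169.0 TPM.

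The TCA cycle enzymes were expressed at like levels in both libraries. Their sum was 2015 and 2016 TPM. Idh2, the mitochondrial NADP-dependent isocitrate dehydrogenase, led at 563.8 and 569.3 TPM and exceeded its cytosolic relative Idh1 (99.3 and 101.0 TPM) by a log2 ratio of 2.50 ± 0.01. Idh3a, the catalytic subunit of the NAD-dependent enzyme that works in the cycle itself, had 69.2 and 65.7 TPM. Its partner subunits Idh3b and Idh3g, not on the list, had 128.5 and 136.0 TPM and 184.4 and 198.2 TPM.

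Malate dehydrogenase was divided about evenly between compartments. Mitochondrial Mdh2 had 360.8 and 359.6 TPM and cytosolic Mdh1 332.4 and 336.9 TPM. The log2 ratio of Mdh1 to Mdh2 was -0.11 ± 0.02 over all transcripts and 0.18 over coding transcripts only. Mdh2-203, annotated as a target of nonsense-mediated decay, took 26.41% and 29.71% of Mdh2. The order of this pair thus turned with the transcripts counted. Citrate synthase (Cs), which feeds acetyl groups into the cycle, had 144.1 and 142.2 TPM. The succinyl-CoA ligase subunits Suclg1 and Sucla2 had 122.6 and 123.4 TPM and 91.4 and 88.8 TPM. Ogdh, of the oxoglutarate dehydrogenase complex, had 95.8 and 94.9 TPM, the fumarase Fh1 85.4 and 86.4 TPM, and Aco1, the cytosolic aconitase that also acts as an iron sensor, 50.6 and 47.5 TPM. Succinate dehydrogenase, not on the list, reached 291.6 and 295.9 TPM for Sdhb.

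Both arms of glycogen metabolism were present. Gys1, the glycogen synthase of muscle and most tissues, had 45.1 and 45.2 TPM, and the liver synthase Gys2 had 0.0300 and 0.760 TPM. Glycogen phosphorylase was shared by the brain form Pygb (77.9 and 79.4 TPM), the liver form Pygl (70.9 and 78.0 TPM) and the muscle form Pygm (23.9 and 30.2 TPM). The log2 ratio of Pygb to Pygl was 0.08 ± 0.08, within the spread of the replicates, and that of Pygl to Pygm was 1.47 ± 0.14. Gyg, the glycogenin that primes new glycogen, was at 282.2 and 293.4 TPM, above each of the glycogen enzymes on the list. Gys1 overlaps Ruvbl2 on the opposite strand (126.3 and 127.3 TPM), and no strand setting is given in the sources used here.

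Most of these genes used the same main transcript in both libraries. Of 28 genes with a mean of 10 TPM and at least 2 transcripts at 1 TPM, 27 had the same leading transcript in both, against 91.8% of 5597 coding genes chosen the same way. The exception was Pfkfb3. The leading transcript held at least 50% in 25 of the 28, against 71.2% of those coding genes, and Gapdh was the 1 gene led by a transcript not annotated as coding, against 10.6%. Among the 28, Pfkm showed the widest gap in share between libraries, with Pfkm-201 at 83.4% in replicate 1 and 55.68% in replicate 2. Pfkp-201 followed with 54.11% and 36.75%. In 36 of the 49 genes coding transcripts made up at least 90% of TPM, and in 8 they made up less than 75%: Hk2, Pfkp, Pfkfb2, Gapdh, Eno2, Pdk1, Mdh2 and Pygm. These counts were not made over all coding genes, so whether they are usual is not known.

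**Figure D4:**
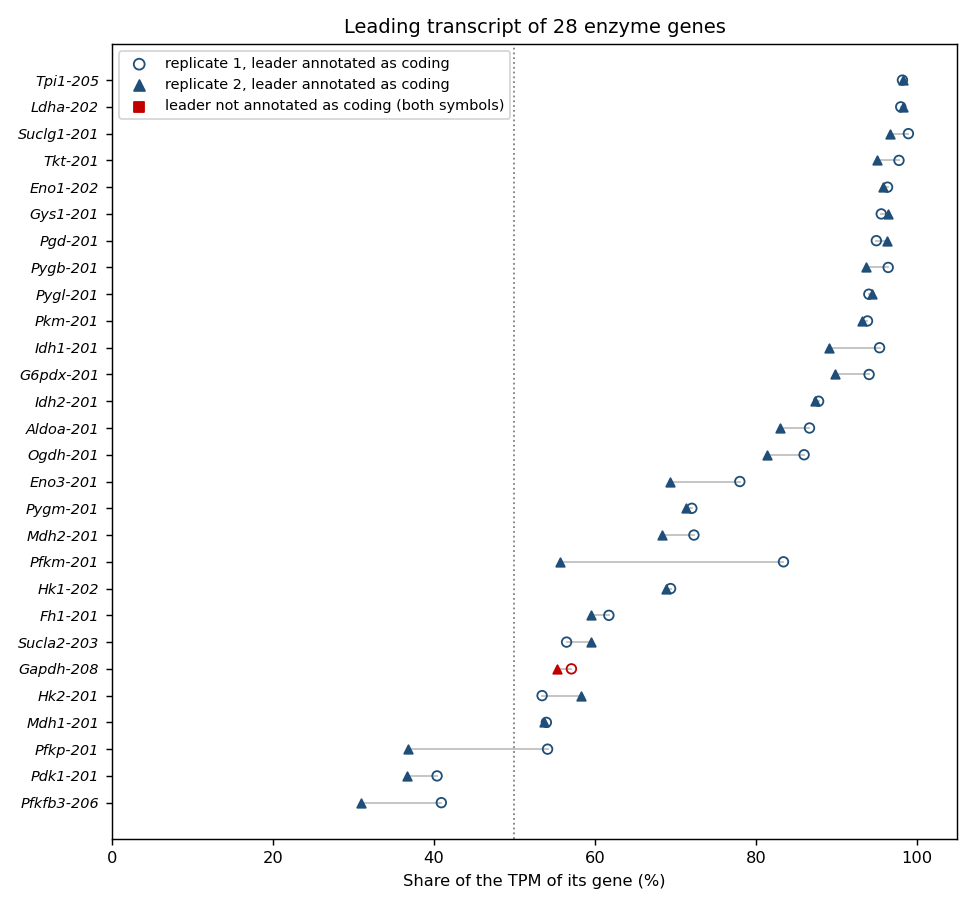
Share of its gene's TPM (percent) held by the leading transcript of 28 enzyme genes in replicate 1 (open circles) and replicate 2 (triangles); red marks a leader not annotated as coding, and the dotted line marks 50%. Gapdh-208 is the only red pair, and Pfkm-201 has the longest gap, with 83.4% in replicate 1 and 55.68% in replicate 2.

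The spread between the libraries was near that of coding genes between 10 and 100 TPM and above 1000 TPM, and differed from it at the other levels. None of the 47 enzymes that averaged 1 TPM or more differed 2-fold, against 1.20% of 13469 coding genes, with 1.01% higher and 0.193% lower in replicate 2. With so low a background, 0 of 47 does not set the enzymes apart. The median log2 difference in TPM + 1 (replicate 2 minus replicate 1) was 0.02 over the 47 enzymes and -0.01 over coding genes. Of the enzymes 29 were higher and 18 lower in replicate 2, against 6477 higher and 6955 lower of the 13469 coding genes. The median over the enzymes was -0.02 with counts scaled by TMM or by DESeq2 size factors. With TMM 20 of the 47 were higher in replicate 2, and with DESeq2 size factors 17. The sign of the median and the count thus depend on the scaling. By level, the median absolute difference was 0.25 for the 6 enzymes between 1 and 10 TPM, against 0.14 for coding genes. It was 0.09 for both between 10 and 100 TPM and 0.07 for both above 1000 TPM. Between 100 and 1000 TPM it was 0.02 for the 17 enzymes, against 0.07 for 1482 coding genes. Over the 41 genes above 10 TPM in both libraries the median coefficient of variation was 3.10%, and the highest was 27.9%, for Eno3.

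Of the isoenzymes named for muscle, Eno3 and Pygm were higher in replicate 2 with deposited bounds that did not overlap between the libraries. The bounds of Pgam2 and Pfkm overlapped. Over the whole list the bounds of 14 of the 49 genes did not overlap, among them Gapdh (log2 difference -0.06) and Ldha (0.07). The share over all coding genes was not computed. Eno3 had 47.5 TPM in replicate 2 and 31.8 TPM in replicate 1, a log2 difference of 0.56, the largest among the 47 genes. Pygm differed by 0.32, Pgam2 by 0.16 and Pfkm by 0.06, with the same sign under TMM and DESeq2 scaling. All 11 skeletal muscle markers that averaged 1 TPM or more were higher in replicate 2, 7 of them at least 2-fold. The sum of the 12 markers was 680.6 TPM in replicate 2, against 235.0 TPM in replicate 1, and none was at 0. The skeletal actin gene Acta1 had 269.6 TPM in replicate 2 and 75.8 TPM in replicate 1, and the lowest marker, Myod1, had 0.890 and 0.550 TPM in the same order. Cardiac muscle markers went the other way, lower in replicate 2 for 7 of 8. Hk2, a hexokinase of muscle, was lower in replicate 2, at 10.7 TPM against 14.1 TPM in replicate 1, a log2 difference of -0.37. The brain form Aldoc differed by 0.40 and the neuronal form Eno2 by 0.33 (-0.86 over coding transcripts only). The deposited bounds of Aldoc and Eno2 overlapped between the libraries. The part of muscle tissue in these differences was not tested.

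Liver isoenzymes were compared in the same way. All 8 liver markers were at least 2-fold higher in replicate 2, with a sum of 519.7 TPM there against 63.7 TPM in replicate 1. Pklr had 1.13 TPM in replicate 2, from 56 expected counts, and 0.150 TPM in replicate 1, from 8. Both values lay below their own deposited bounds, 1.18 to 3.25 TPM for replicate 2 and 0.188 to 1.30 TPM for replicate 1, and these bounds overlapped. The posterior mean estimates were 2.15 TPM in replicate 2 and 0.700 TPM in replicate 1, so the level of Pklr is uncertain. Its log2 difference was 0.89 with a pseudocount of 1 TPM and 2.30 with 0.1 TPM. Pfkfb1 differed by 0.37 and Pygl by 0.14. Pfkl, the most abundant gene of liver type, differed by 0.02 (-0.02 with TMM). The part of liver tissue in the levels of Pklr, Pfkfb1, Pygl and Pfkl was not tested.

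**Figure D5:**
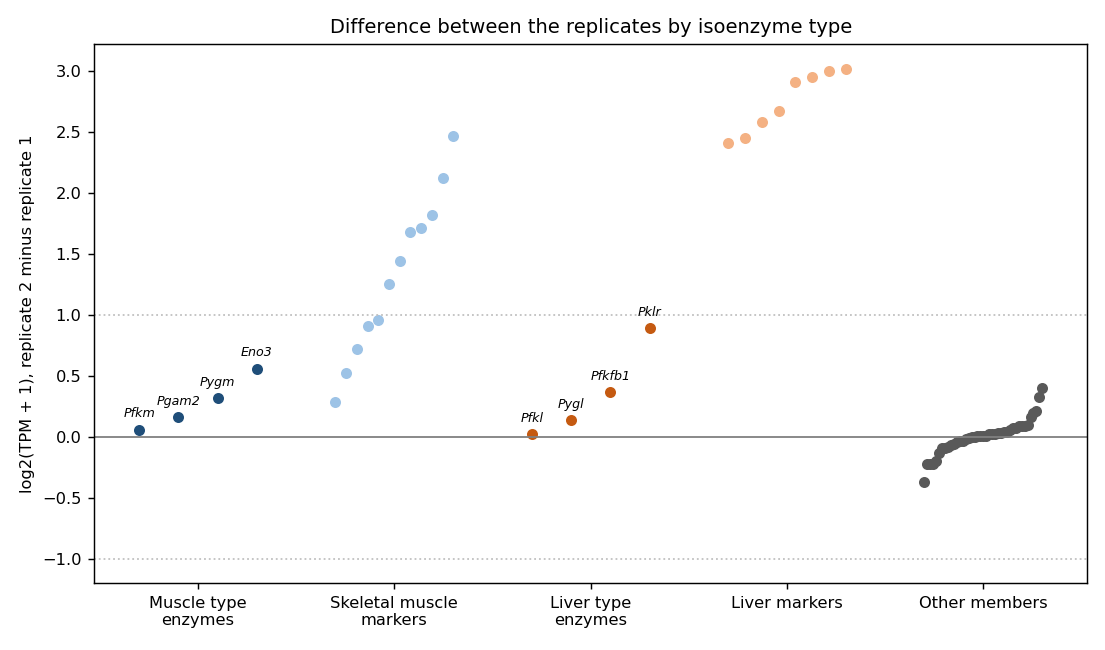
Difference in log2(TPM + 1), replicate 2 minus replicate 1, for isoenzymes named for muscle or liver, for skeletal muscle and liver marker genes, and for the remaining enzymes; dotted lines mark 2-fold. The liver markers lie above 2-fold throughout, most skeletal muscle markers do, and no enzyme does, the highest being Pklr at 0.89.

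Of 68 further enzymes of these pathways that are not on the list, 53 (77.9%) were detected at 1 TPM or more in both libraries, with a median of 24.3 ± 0.453 TPM. Those of the TCA cycle had a median of 127.0 ± 2.15 TPM, and those of glycolysis and gluconeogenesis 2.10 ± 0.682 TPM. The highest of the second set were Pgp (88.5 and 72.1 TPM), Bpgm (53.5 and 56.8 TPM), which makes the allosteric effector of haemoglobin in red cells, and Minpp1 (42.9 and 40.1 TPM). Its lowest were G6pc, the catalytic subunit that releases free glucose in liver, and Pgk2, a testis enzyme, both listed at 0, and Pck1, the cytosolic gluconeogenic carboxykinase, at 0 and 0.0600 TPM. A count of 0 allows up to 3 counts per library from counting error alone. Other isoenzymes outside the list were also low, with Eno4 at 1.58 and 2.14 TPM and Ldhc at 0.120 and 0.380 TPM.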

How the data were processed

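The expected counts deposited by the authors are estimated reads per gene or transcript, a read matching several being divided among them. The TPM values deposited divide these by effective length and scale them to the same total over all rows, spike-ins included. The score columns deposited are credibility bounds of TPM within a library, and the TPM lay above them for 11 of the 49 genes in replicate 1 and 12 in replicate 2. The percent column deposited says how the TPM of a gene is divided among its transcripts. Build mm10 and GENCODE M4 are stated in the notes deposited with the files, and the aligner and quantifier are not given in the sources used here.

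Symbols, coordinates and transcript classes came from GENCODE M21 by identifier, which matched 42462 of 43346 gene rows. All 49 genes are named, with other pathway enzymes as isoenzymes or as the highest and lowest of their block. Some of these are not reported here. The genes and lists were chosen with earlier results of these data known. A log2 ratio within a library had its sign called if the replicates shared it and their mean was beyond 2 SD. Differences between replicates used log2(TPM + 1), a pseudocount that understates low genes, and were counted at 2-fold for genes at a mean of 1 TPM. The labels name the samples biological replicates from separate pools. No p-value was computed, since 1 group allows no test.

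Scaling alternatives used expected counts rounded to whole numbers with edgeR 4.0.16 (TMM) and DESeq2 1.42.0 in R 4.3.3. Other steps used Python 3.11.15, NumPy 2.4.6, pandas 2.3.3 and matplotlib 3.10.9. Intervals and floors cover counting error only.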

Additional observations from a re-analysis of the deposited data

How the results depend on the processing

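The median level of the 49 genes, 78.7 TPM, was 77.6 TPM with posterior mean estimates, 82.9 TPM when TPM was rescaled over gene rows, 85.9 TPM over members at a mean of 1 TPM or more and 75.6 TPM over coding transcripts only, an alternative chosen after seeing the data. Their share of TPM, 1.05%, was 1.02%, 1.10% and 0.933% under the posterior mean, gene row and coding transcript settings. Leaving out a replicate gave medians of 77.9 to 79.4 TPM, shares of 1.04 to 1.05%, 47 to 49 genes detected, 53 to 56 further enzymes detected, 7 families with a gene at 50% or more and a Pkm-201 share of 93.2 to 93.8%. The ratio count has no such value, since 1 replicate has no SD. Of 51 values of the 17 pairs under the posterior mean, count and coding settings, 49 kept the sign. The log2 ratio of Pdk1 to Pdk3 turned to 0.48 in counts, which are not divided by length, and that of Mdh1 to Mdh2 to 0.18 over coding transcripts. No gene differed 2-fold between the libraries under any of the 7 alternatives of that count; Pklr, under the filter of 1 TPM, did so with a pseudocount of 0.1 TPM (2.30), TMM (1.37) and DESeq2 size factors (1.36). No paired analysis was possible because the series has a single group. Depth limits Pklr and Hk3, whose levels rest on 8 to 59 expected counts. Of the 49 genes, 23 overlap another gene, 21 of them on the opposite strand, and reads in the overlap cannot be told apart without a strand setting. In 8 genes an opposite-strand partner averaged 10 TPM or more, and some overlaps were short, with 34 nt for Tpi1 and 68 nt for Gapdh. The share of all genes that overlap another was not computed.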

Other observations

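Other blocks of the 68 further enzymes gave values not described above, each given for replicate 1 and then replicate 2. For glycogen, Stbd1, which tethers glycogen to membranes, had 109.8 and 116.8 TPM and the phosphoglucomutase gene Pgm1 76.0 and 84.5 TPM, and the lowest were Phkg1, a muscle subunit of phosphorylase kinase, at 0.260 and 0.290 TPM and Epm2a, the laforin gene, at 0.290 and 0.400 TPM. Among TCA genes Sdhd stood at 240.1 and 243.6 TPM and Sdhc at 236.7 and 217.7 TPM, beside Ogdhl at 6.17 and 5.67 TPM, Me3 at 2.32 and 1.32 TPM and Csl at 0.0800 and 0.120 TPM. In the pentose phosphate block H6pd, an enzyme of the endoplasmic reticulum, had 32.1 and 33.1 TPM, whereas Shpk had 1.37 and 1.95 TPM, Tktl1 was at 0.0200 TPM in both and Tktl2 was listed at 0. Of the pyruvate dehydrogenase block, Dlat had 36.5 and 33.7 TPM, and the phosphatase gene Pdp2, whose enzyme counters the kinases, and the phosphatase regulatory subunit gene Pdpr had 9.59 and 9.08 TPM and 8.05 and 7.69 TPM.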
